A study of Saccharomyces cerevisiae with 8 samples.

Results

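Messenger RNAs of budding yeast (Saccharomyces cerevisiae) begin with a 5′ untranslated region, or leader, that the ribosome scans before it reaches the start codon. The leaders described here are the 980, of 6696 annotated gene regions, that held at least 50 RNA-seq reads in each of the 8 libraries. Of the 6696 regions, 4709 had countable leader bases and 4628 held at least 1 leader read in some library. The measurement is the leader share, the percentage of a gene's leader and coding reads that lay in the leader. Leaders that passed were chosen by read number alone, so their abundance is not a result, and a leader reduced below 50 reads in any library could not enter. HHF1, YSY6 and EMI2 were just inside the threshold with 50 reads in their lowest library, and SWD1, UBS1 and GET3 were just outside it with 49. PMP1 and YCR024C-B had no countable coding base, so 978 of the 980 have a share that could be tested.

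Wild-type (WT) and grr1-deficient cells of the W303 strain were cultured in SC medium (2% glucose, 30 °C). Tunicamycin was added at 1 µg/ml once the OD600 reached 0.2. Total RNA was taken from cleared lysates, made in a ribosome profiling buffer with cycloheximide, at 0 h and at 4 h. The 4 groups are WT at 0 h, WT at 4 h, grr1-deficient at 0 h and grr1-deficient at 4 h, each with 2 biological replicates. Untreated cells at 4 h were not analysed here, so hours in culture and tunicamycin cannot be told apart, and the labels do not say how the deficiency was made or in how many clones. GRR1, the F-box subunit of an SCF ubiquitin ligase, had 1124, 1310, 1739 and 1771 coding reads in the 4 WT libraries and 0, 1, 0 and 0 in the grr1-deficient ones. The GRR1 leader, which is not among the 980, had 55, 74, 55 and 58 reads in WT and 2, 2, 6 and 12 in grr1-deficient cells. GRR1 reads thus followed the genotype labels in all 8 libraries.

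Yeast leaders are usually short and rich in A. A start codon in the leader can open an upstream reading frame that ribosomes translate first, as in GCN4, the transcription factor of amino acid starvation. A gene can also use several transcription start sites, so that the reads of its leader belong to some of its transcripts and not to others. Tunicamycin blocks N-linked glycosylation and leads to unfolded protein in the endoplasmic reticulum (ER), and the transcription factor Hac1 then raises the genes of the unfolded protein response (UPR). Ribosomal protein genes are known to fall in yeast under ER stress.

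Exon reads per library ranged from 4885844 to 12380049. The replicates of grr1-deficient cells stood apart in the reads of the mitochondrial genome, with 889787 (0 h) and 1095064 (4 h) in replicate 1 and 192 and 100 in replicate 2. The summed share over the 978 leaders was 8.00% and 7.65% for WT at the start, 10.6% and 10.9% for WT after 4 h, 9.68% and 9.70% for grr1-deficient cells at the start, and 9.78% and 9.02% for these after 4 h. It was thus lowest in WT at 0 h, without overlap with the other groups. The median share over the leaders varied less, from 13.6% to 15.2% across libraries. Ribosomal protein genes made up 21.8% and 21.0% of the leaders' genes' coding reads in the first of these groups, 2.02% and 2.02% in the second, 14.3% and 12.4% in the third and 5.79% and 6.39% in the fourth. The summed share without them was 7.99% and 7.71%, 10.6% and 10.8%, 9.67% and 9.68%, and 9.70% and 8.85% in the same order.

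The sequence around the start codon is shown for 6 leaders whose share moved most or stands for a group below, with the start codon in capitals. Each run holds 24 bases before the start codon and 3 after it, 5′ to 3′ on the gene's strand, from the RefSeq R64 genome. ODC2 lies at chrXV:758306-758335 (+), SSA1 at chrI:141426-141455 (-), RPL7A at chrVII:365991-366020 (-), NCW2 at chrXII:541568-541597 (-), HEM15 at chrXV:662377-662406 (+) and SEC53 at chrVI:44387-44416 (-).
ODC2: aattcgaggtagcatcaaagtaatATGtca
SSA1: aaattcaagtaaataacagataatATGtca
RPL7A: ccaaccaagcaaattaagatcacaATGgcc
NCW2: aaacaaacccaacatatatataaaATGaag
HEM15: agtaaaaaaaagaacgtttaaagaATGctt
SEC53: tatctgctaatataaccaccaataATGagt
All 6 have A at position -3, counted back from the start codon, as did 70.2% of the 976 leaders with a sequence and 63.8% of all tested leaders. This holds both for those whose share rose (ODC2, SSA1, RPL7A) and for those whose share fell (NCW2, HEM15, SEC53). It does not hold for every leader described below: RPL15A, which rose, and DFG5, which fell, have G at that position.

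The upstream reading frames of leaders described below are shown because 9 of the 11 leaders that fell in both genotypes, DFG5 and BUD7 among them, and ODC2, which rose most, hold upstream start codons, and GCN4 is the known example. Capitals mark the start and stop codon of each frame. The sequence of a leader was taken as its countable number of bases directly before the start codon, which assumes that these are the bases counted. The ODC2 leader of 496 bases holds 9 upstream start codons, all closed by a stop codon within the leader, and the 3 frames shown are the second, the third and the fifth, which start 404, 393 and 284 bases before the coding region, at chrXV:757926-757931, chrXV:757937-757951 and chrXV:758046-758054 (+). The DFG5 frame shown, the first of 4, lies at chrXIII:746068-746076 (+), the second and the third of the 3 BUD7 frames at chrXV:878274-878285 and chrXV:878315-878326 (+), and the GCN4 frames at chrV:139928-139939 and chrV:139903-139914 (-).
ODC2 frame 2: ATGTAA
ODC2 frame 3: ATGagacatggtTGA
ODC2 frame 5: ATGaaaTAG
DFG5 frame 1: ATGcgaTAA
BUD7 frame 2: ATGcaaataTAG
BUD7 frame 3: ATGgcgtttTAA
GCN4 frame 1 of the window: ATGtacccgTAG
GCN4 frame 2 of the window: ATGtttccgTAA
Only short frames are shown. Longer ones in the same leaders run to 69, 34, 25 and 20 codons in ODC2, 28 in BUD7 and 16 in DFG5, not counting the stop codon. The counted GCN4 window of 194 bases holds 2 frames, numbered within that window, and bases farther upstream were not examined. The GCN4 share given below likewise covers the counted bases only.

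The 980 leaders ranged from 18 to 797 countable bases, with a median of 150. The share averaged over the 8 libraries ranged from 0.223% to 70.5%, with a median of 14.3% and quartiles of 8.66% and 21.2%. The median share was higher in longer leaders, at 4.92% in the 6 leaders of up to 25 bases and 18.1% in the 94 of more than 400. The ratio of leader reads per base to coding reads per base was lower in the longest class, with medians of 1.77 and 0.60. Each read was counted at the base 25 nt from its 5′ end, so a read that starts at the annotated start of a transcript has no place in the first 25 bases of its leader, and shares are not shares of molecules.

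The highest shares were those of MIN6, RPP2B and YNK1. MIN6, whose leader of 668 bases runs into the opposite strand's ERD2, had shares of 61.1% to 77.9%. RPP2B, a protein of the ribosomal stalk, had 60.0% to 68.6% in a leader of 121 bases, and its reads per base were 5.32 times those of its coding region. YNK1, the nucleoside diphosphate kinase, had 57.3% to 68.1% over only 116 countable coding bases. The lowest mean shares were those of GPM1, phosphoglycerate mutase, with 0.223%, of ENO2, enolase, with 0.230%, and of TEF1, translation elongation factor 1 alpha, with 0.265%. Many ribosomal protein genes, SSA1, SSB2, TIF1, TEF1 and ENO2 have a near-identical copy of their coding region. The assignment of coding reads between copies is then uncertain while leaders differ, and so is the level of the share. The changes of share given below for these genes use the same coding reads. The part of this assignment in them was not tested.

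The comparisons below ask whether the odds that a read lay in the leader changed with tunicamycin or genotype. They were tested with edgeR's quasi-likelihood test over 3702 leaders, with a log2 odds ratio that is positive where the leader share rose, its standard error (SE), and a Benjamini-Hochberg adjusted p of 0.05 as the threshold. The SE was computed back from the test, as the absolute log2 odds ratio over the square root of its F statistic. In the text a share rose, fell or differed only where it passed.

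In WT cells, the share of 208 of the 978 leaders changed between 0 h and 4 h of tunicamycin, or 21.3% against 17.8% of all leaders tested. The share rose for 166 of them (background 12.9%) and fell for 42 (background 4.86%). The median log2 odds ratio was 0.06 over the 978 and 0.10 over all tested. The split depends on the scaling: when leader and coding columns were scaled separately, which moved the median to -0.09, 120 rose and 84 fell. Without WT 4 h replicate 2, 130 leaders were called.

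Of the lists examined, the ribosomal protein genes had the largest part of their leaders called. The lists of the large subunit with stalk and of the small subunit held 72 and 50 tested leaders, of which 30 and 21 are among the 978. The transcripts of these members had median log2 changes of -4.41 and -4.70 in WT. A leader needed 50 reads at 4 h too, which could favour leaders that fell less than their coding regions. The part of this rule in the counts here and below was not tested. Of the 51 among the 978, 44 rose and none fell in WT, with 39 to 44 rising when any library was left out and 43 under separate scaling. Of the 30 leaders of the large subunit and stalk, 26 rose, with a median share of 3.003% at 0 h and 8.76% at 4 h. Of the 21 of the small subunit, 18 rose, from 3.37% to 9.48%. The other 7, RPP1A, RPP2B, RPS2, RPL1B, RPS31, RPS25B and RPP0, had mean shares of 11.3% to 66.0% at 0 h, and their log2 odds ratios lay between -0.16 and 0.38. These ribosomal proteins started from higher leader shares than most of the 44, while their transcripts fell as well.

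RPL7A, a protein of the large subunit, had leader shares of 0.421% and 0.364% in WT at 0 h and of 3.23% and 4.49% at 4 h. Its log2 odds ratio of 3.34 (SE 0.24, edgeR adjusted p = 9.64e-16) is the largest of the ribosomal protein leaders. The change came about while both parts of the transcript fell. In counts scaled to library depth (CPM), the RPL7A leader went from 16.5 and 13.2 to 5.13 and 6.67, and its coding region from 3894 and 3621 to 154 and 142. RPL15A, also of the large subunit, rose from 0.407% and 0.514% to 4.66% and 3.75%, and RPS1B, of the small subunit, from 0.842% and 0.953% to 5.59% and 6.71%. Neither gene's 0 h and 4 h libraries overlapped.

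**Figure D1:**
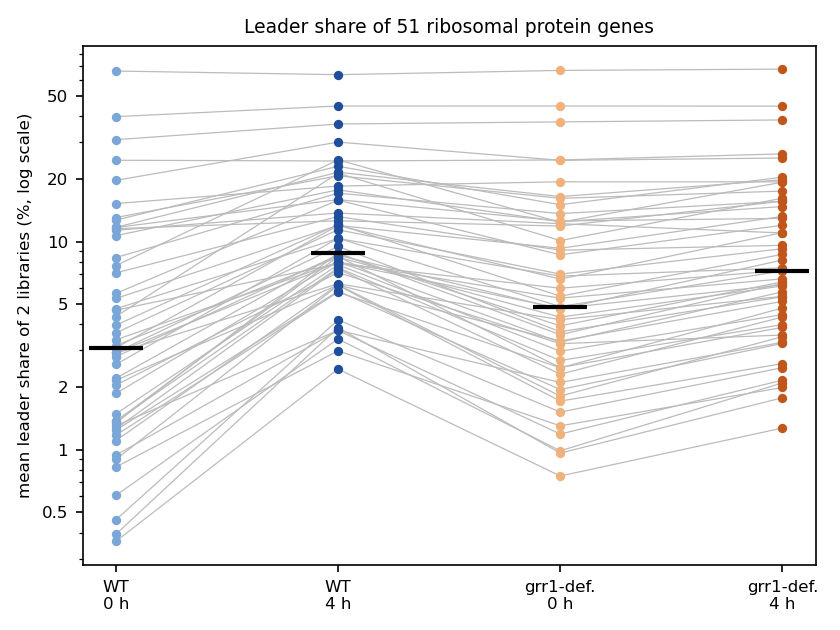
Leader share (percent, log axis) of 51 ribosomal protein genes in the 4 groups, with points for the mean of the 2 libraries of each gene, lines joining a gene and bars for group medians. The medians are 3.09% and 8.81% in WT (0 h and 4 h) and 4.87% and 7.23% in grr1-deficient cells, so WT spans the wider range.

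Leaders of other highly expressed genes rose as well. Among translation factors 11 of 20 rose and none fell, with a median log2 odds ratio of 0.56. TIF1, the RNA helicase eIF4A, had shares of 0.366% and 0.371% at 0 h and 1.70% and 1.57% at 4 h (log2 odds ratio 2.17, SE 0.22, edgeR adjusted p = 3.69e-11), and YEF3, elongation factor 3, rose by 1.58. Among genes of glycolysis and fermentation 11 of 19 rose and none fell, with a median of 0.77, though under separate scaling 1 fell. TPI1, triose phosphate isomerase, with a leader of 36 bases, had 0.331% and 0.288% at 0 h and 1.58% and 1.48% at 4 h. GPM1 rose by 2.19, CDC19, pyruvate kinase, by 2.05 and ENO2 by 1.71 on the log2 scale. All of these leaders had low shares at 0 h.

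Among chaperones and general stress genes 7 of 18 rose and none fell, with a median log2 odds ratio of 0.28. SSA1, a cytosolic chaperone of the Hsp70 family, rose from 2.26% and 1.69% to 6.79% and 7.09% (log2 odds ratio 1.89, SE 0.17, edgeR adjusted p = 8.29e-13). Its leader went from 59.8 and 39.4 CPM to 296 and 325, and its coding region from 2588 and 2288 to 4059 and 4254. SSA1 thus rose in leader and coding reads together, unlike the ribosomal protein leaders. SSB2, a ribosome-associated chaperone, rose by 2.39 and TSA1, the thioredoxin peroxidase, by 1.68. Leaders of amino acid synthesis genes were mixed, with 9 of 32 higher, HIS1, TRP4 and HOM2 among them, and 3 lower, HIS4 and GLT1 among them; with a library left out, 4 to 9 were higher.

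The remaining lists gave few calls in WT. Cell wall and surface genes had 4 of 16 leaders higher, GAS1, GAS5, CRH1 and BGL2, but 1 without WT 4 h replicate 1, and 3 higher with 1 lower under separate scaling. Mitochondrial respiration had 5 of 35 higher and 1, ATP7, lower. Ribosome biogenesis had 1 of 3 higher, NOP10, and ER-associated degradation 0 of 3. Genes with alternative start sites had 1 of 3 higher, GRS1, and 1 lower, ADE12. ER to Golgi traffic had 0 of 13 higher and 1 lower, ERV14, a call that was lost when WT 0 h replicate 2 or either WT 4 h library was left out. NOP10, ADE12 and GAS5 were not called with DESeq2 (adjusted p = 0.0579, 0.0885 and 0.0872).

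The single leader that rose most was that of ODC2, a mitochondrial carrier of 2-oxo acids. Its share was 4.48% and 4.73% in WT at 0 h and 40.4% and 38.9% at 4 h (log2 odds ratio 3.77, SE 0.32, edgeR adjusted p = 3.02e-06). The ODC2 leader rose from 14.01 and 12.05 CPM to 27.1 and 26.5 while its coding region fell from 298 and 243 to 40.0 and 41.5. Leader and coding reads of ODC2 therefore moved in opposite directions, and the 4 h libraries lie far above those at 0 h. VTC1, a subunit of the vacuolar transporter chaperone that makes polyphosphate, rose from 12.7% and 9.35% to 25.3% and 24.3% as both parts fell.

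**Figure D2:**
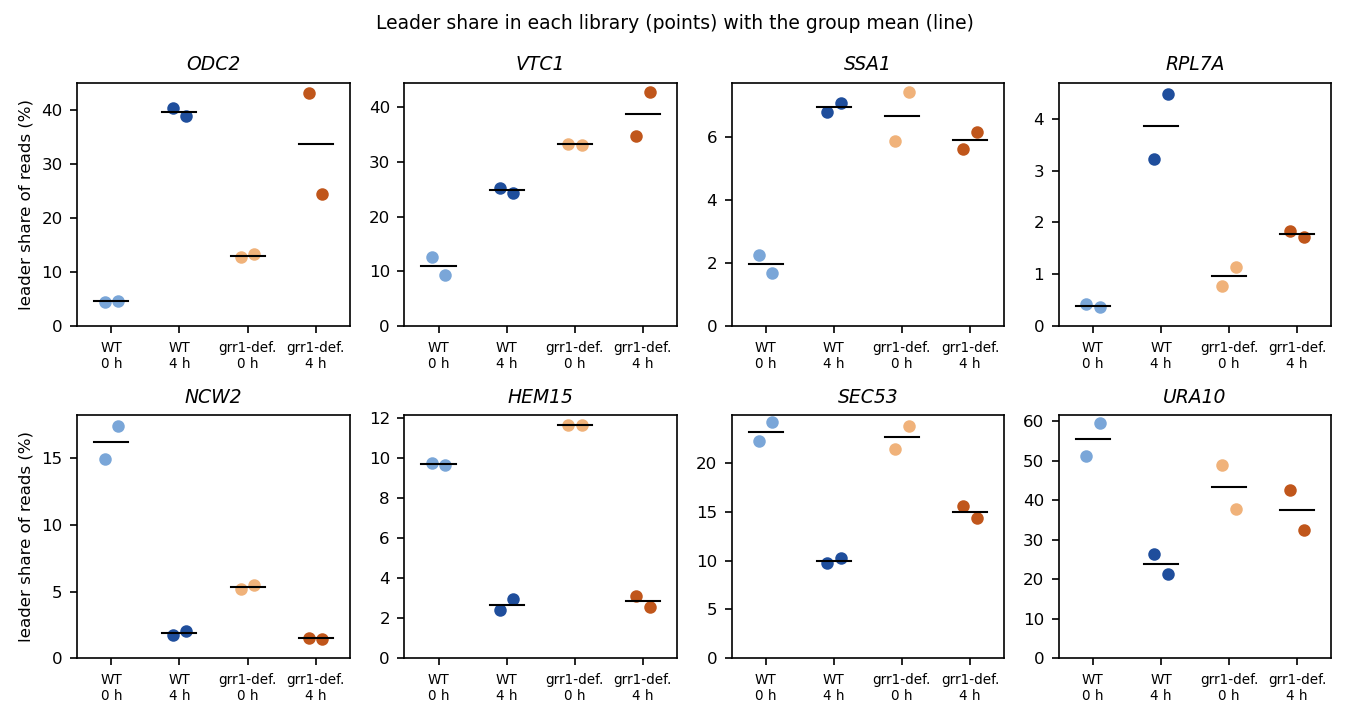
Leader share (percent) in each of the 8 libraries for ODC2, VTC1, SSA1, RPL7A, NCW2, HEM15, SEC53 and URA10, with 1 point per library and the 4 groups side by side. At 4 h ODC2 reached 40.4% and 38.9% in WT, and 43.1% and 24.5% in grr1-deficient cells, while NCW2 fell below 2.1% at 4 h in both.

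The leaders that fell were led by NCW2, a cell wall protein. Its share was 14.9% and 17.4% in WT at 0 h and 1.75% and 2.04% at 4 h (log2 odds ratio -3.33, SE 0.20, edgeR adjusted p = 4.49e-19). The NCW2 coding region rose from 65.1 and 59.2 CPM to 916 and 762, and its leader from 11.4 and 12.5 to 16.3 and 15.9. The coding reads thus rose far more than the leader reads. The NCW2 leader window ends 22 bases from the coding region of NMT1 on the same strand, and the part of NMT1 reads in it was not tested.

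HEM15, ferrochelatase of haem synthesis, had shares of 9.76% and 9.68% at 0 h and of 2.43% and 2.94% at 4 h (log2 odds ratio -1.97, SE 0.19, edgeR adjusted p = 4.84e-12). DFG5, a membrane protein needed for the cell wall, fell from 19.7% and 19.2% to 6.13% and 6.91%. In both genes the coding reads rose and the leader reads fell. URA10, a minor isozyme of orotate phosphoribosyltransferase, fell from 51.2% and 59.6% to 26.3% and 21.3%. CNL1, a subunit of the vesicle complex BLOC-1, fell from 38.8% and 35.5% to 13.9% and 14.8%, a call that edgeR did not make without WT 0 h replicate 1 (adjusted p = 0.0848) or replicate 2 (0.0622).

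Among the 980 of 6696 regions are 6 of 26 ER folding genes, 9 of 37 of glycosylation and 13 of 33 of ER to Golgi traffic. From ER-associated degradation there are 3 of 17, and from the UPR core 1 of 10. SEC53, phosphomannomutase, which makes the mannose donor of glycosylation, fell from 22.2% and 24.1% to 9.71% and 10.2% in WT (log2 odds ratio -1.45, SE 0.15, edgeR adjusted p = 2.67e-11). Its leader went from 263 and 265 CPM to 109 and 125 and its coding region from 919 and 832 to 1014 and 1098, so the leader reads were lower while the coding reads were slightly higher. With GFA1, which makes glucosamine phosphate, SEC53 made up the 2 of 9 glycosylation leaders that fell, and none rose. KAR2, the ER chaperone BiP, had shares of 2.48% and 1.82% at 0 h and 3.05% and 3.13% at 4 h, while its coding reads rose from 1046 and 958 CPM to 4797 and 4170. The KAR2 call (log2 odds ratio 0.54, edgeR adjusted p = 0.0272) was lost under separate scaling (0.0771), with DESeq2 (0.103), and with 1 library left out (0.389 without replicate 2 of WT at 0 h, 0.131 and 0.18 without either one at 4 h). KAR2 was the 1 of 6 ER folding leaders that rose, and the UPR core list had 1 leader, PTC2, which was not called. HAC1 had no countable leader base and is not among the 980.

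Genes known to carry upstream reading frames did not pass, with 0 of 6 called in WT. GCN4 had shares of 14.9% and 14.4% at 0 h and 15.1% and 15.1% at 4 h in WT, and of 14.4%, 15.5%, 13.4% and 12.6% in grr1-deficient cells. Its log2 odds ratio was 0.05 (SE 0.15) in WT and -0.23 (SE 0.15) in grr1-deficient cells, and GCN4 was not called in any of the 5 comparisons. This stood beside a GCN4 transcript that fell in WT by 1.43 on the log2 scale (edgeR adjusted p = 0.000874).

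Recognition sequences of the UPR are shown for SEC53 and KAR2, because these are the glycosylation and ER folding leaders named above. Within 500 bases before the start codon, CAGCGTG was searched on both strands, and TACGTG likewise. The SEC53 sites lie at chrVI:44683-44709 and chrVI:44519-44544 (-), the first as the reverse complement of the motif, and the KAR2 site at chrX:381157-381183 (+), with the motif in capitals.
SEC53 first site: agttgctaggCACGCTGaatccacggg
SEC53 second site: tgccgtttttTACGTGttcttttcac
KAR2 site: aggaactggaCAGCGTGtcgaaaaagt
CAGCGTG was found before 2.87% of the leaders' genes against 2.61% of all tested, and TACGTG before 12.91% against 13.82%. A match is a string of letters and says nothing of binding.

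The counts behind the shares show which part of the transcript moved. Among the 166 leaders whose share rose in WT, leader and coding CPM both fell for 110, both rose for 31, and the leader rose while the coding region fell for 25. Their median log2 change was -0.68 for the leader and -1.76 for the coding region. For the 44 ribosomal protein genes both parts fell in every one, by medians of 2.65 and 4.63 on the log2 scale. Among the 42 whose share fell, coding reads rose while leader reads fell for 14, both rose for 16, and both fell for 12, with medians of -0.28 and 0.59. Leader reads thus changed less than coding reads at the median of both classes. At the level of the whole transcript, 684 of the 980 genes changed in WT (background 65.6%), 232 higher (background 32.5%) and 452 lower (background 33.1%), with a median log2 change of -0.33. With libraries scaled to their total reads instead, the median was 0.42 and the split was 469 and 248. Changes of level are therefore relative to the scaling, whereas a share is taken within a library.

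**Figure D3:**
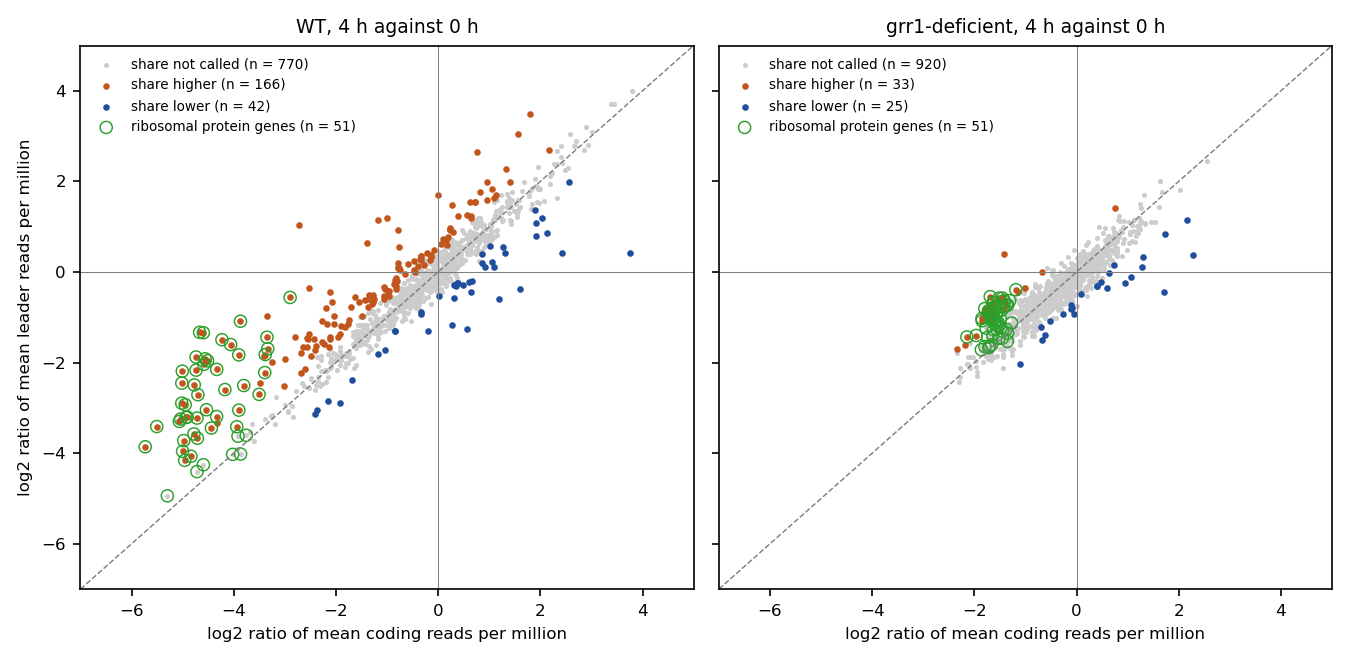
Log2 change of leader CPM (vertical) against that of coding reads (horizontal), 4 h against 0 h, for the 978 leaders in WT and in grr1-deficient cells, coloured by call. Leaders whose share rose lie above the diagonal and to the left, with WT medians of -0.68 for the leader and -1.76 for the coding region.

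Share and transcript changes tended to run in opposite directions across the leaders, though loosely. Pearson's r between them was -0.49 over the 978 leaders in WT and -0.24 over the 927 without ribosomal protein genes, as a description, since both use the same coding reads and libraries. In grr1-deficient cells r was -0.35 and -0.23. Spearman's rank correlations were weaker, at -0.29 and -0.19 in WT and -0.27 and -0.18 in grr1-deficient cells. Of the 122 leaders outside the ribosomal protein genes that rose in WT, the transcript was lower for 79, higher for 20 and not called for 23.

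In grr1-deficient cells, the share of 58 leaders changed between 0 h and 4 h of tunicamycin, or 5.93% against a background of 4.75%. The share rose for 33 (background 2.54%) and fell for 25 (background 2.22%). The median log2 odds ratio was -0.05 over the 978 and -0.03 over all tested. The count leans on single libraries: it was 20 without grr1-deficient 0 h replicate 1, 29 without 4 h replicate 2 and 21 without both libraries of replicate 2. Without 4 h replicate 1 there were 67, and the split turned to 25 higher and 42 lower.

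Ribosomal protein leaders made up 25 of the 33 that rose, and none of the 51 fell. The large subunit median went from 4.56% to 6.35% and the small subunit median from 5.35% to 7.27%. The count of 25 fell to 4 without 0 h replicate 1, and to 12 without 4 h replicate 2, without both libraries of replicate 2, or with DESeq2. RPL7A had 0.783% and 1.14% at 0 h and 1.83% and 1.72% at 4 h (log2 odds ratio 0.95, SE 0.23, edgeR adjusted p = 0.00614). Without 0 h replicate 1 the RPL7A adjusted p was 0.299, without 4 h replicate 2 it was 0.0547, and with DESeq2 0.0511. RPS3, of the small subunit, rose by 1.17, the most of this group (edgeR adjusted p = 0.00107), and was not called without 0 h replicate 1 (adjusted p = 0.132).

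ODC2 rose in grr1-deficient cells too, with 12.7% and 13.4% at 0 h and 43.1% and 24.5% at 4 h (log2 odds ratio 1.73, SE 0.30, edgeR adjusted p = 0.00573). It was not called when either WT 0 h library was left out (0.0973 and 0.0984), and these enter only through the shared estimate of spread. The 2 ODC2 libraries at 4 h differed widely, yet both lay above those at 0 h. EFB1, a translation elongation factor, was the 1 of 20 translation factor leaders that rose, HOM2 the 1 of 32 in amino acid synthesis and QCR7, a subunit of respiratory complex III, the 1 of 35 in mitochondrial respiration. HOM2 and QCR7 were not called without 0 h replicate 1 (edgeR adjusted p = 0.379 and 0.788) or without both libraries of replicate 2 (0.0651 and 0.142), and QCR7 was not called with a replicate block within genotype (0.0746). HOM2 was also lost without either WT 4 h library or either grr1-deficient 4 h library. Among translation factors 0 to 3 rose with 1 library left out, and 0 without 0 h replicate 1.

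Among the leaders that fell, NCW2 had 5.20% and 5.49% at 0 h and 1.53% and 1.44% at 4 h (log2 odds ratio -1.90, SE 0.22, edgeR adjusted p = 1.09e-08). HEM15 had 11.7% and 11.7% at 0 h and 3.11% and 2.58% at 4 h (log2 odds ratio -2.18, SE 0.23, edgeR adjusted p = 1.28e-09), and DFG5 fell from 13.3% and 13.3% to 6.69% and 5.91%. SEC53 went from 21.4% and 23.8% to 15.5% and 14.4%, the 1 of 9 glycosylation leaders that fell, and was not called without both libraries of replicate 2 (edgeR adjusted p = 0.143). BUD7, which sorts cargo to the cell surface, fell by 1.20, and was not called without 0 h replicate 1 (edgeR adjusted p = 0.105). FPR2, a prolyl isomerase, was the 1 of 6 ER folding leaders that fell, and its window reaches the coding region of EUG1. QCR2, LSC1 and SDH1 were the 3 of 35 respiration leaders that fell, CWP2 the 1 of 16 in the cell wall (0 without either WT 4 h library or either grr1-deficient replicate 2 library), and ALA1, alanyl-tRNA synthetase, the 1 of 3 with alternative start sites. QCR2, FPR2 and ALA1 were not called without both libraries of replicate 2 (edgeR adjusted p = 0.0687, 0.334 and 0.0523). The QCR2 leader had 81.3 and 24.8 CPM in replicates 1 and 2 at 0 h, which differ in mitochondrial reads as given above, and the part of this in its share was not tested. No leader of the lists for glycolysis, chaperones, upstream frames, UPR core, ER-associated degradation, ER to Golgi traffic and ribosome biogenesis was called by edgeR.

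Of the 58 leaders called in grr1-deficient cells, 44 were also called in WT, 75.9% of the first and 21.2% of the 208. All 44 moved in the same direction, 33 higher and 11 lower, and the 33 include each of the leaders that rose in grr1-deficient cells. This overlap is given for the 978 leaders only, without a background over all tested leaders. Whether its size or its single direction is particular to the 978 was not tested. The 11 lower in both were LSM2, SAC6, SAC7, SEC53, TPO5, NCW2, DFG5, YIP3, SGT2, HEM15 and BUD7. Without grr1-deficient 0 h replicate 1 the number called in both was 13, and without both libraries of replicate 2 it was 20. Over the 978 leaders the share changes of the 2 genotypes had a Pearson's r of 0.67, and 0.55 over the 927 without ribosomal protein genes, as a description.

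**Figure D4:**
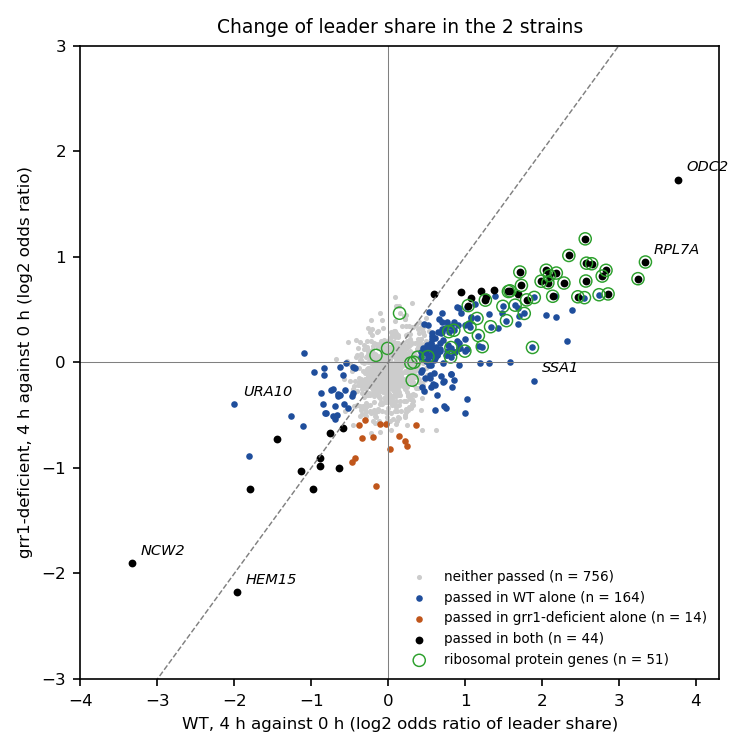
Log2 odds ratio of the share, 4 h against 0 h, in grr1-deficient cells (vertical) against WT (horizontal) for 978 leaders, coloured by call and with the 51 ribosomal protein genes circled. Of these, 756 were called in neither, 164 in WT alone, 14 in grr1-deficient cells alone and 44 in both, and all but 2 of the ribosomal protein genes lie at positive WT values.

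Whether the tunicamycin change itself differed between genotypes was tested by the interaction, which is negative where the share rose less, or fell more, in grr1-deficient cells. It was called for 77 leaders, or 7.87% against a background of 4.38%, with 5 positive (background 0.756%) and 72 negative (background 3.62%). The median over the 978 was -0.15 and over all tested also -0.15, but under separate scaling the median over the 978 was 0.03, with 7 positive and 50 negative. The count was 45 to 85 with 1 library left out and 43 without both libraries of replicate 2.

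Ribosomal protein leaders were 35 of the 72 and none of the 5. That number was 21 to 36 with 1 library left out, 23 without both libraries of replicate 2, and 27 under separate scaling. RPL15A had the most negative value at -2.46 (SE 0.31, edgeR adjusted p = 7.19e-07), followed by RPL7A at -2.40 and RPS1B at -2.21. The shares of RPL15A were 1.11% and 1.93% at 0 h and 2.39% and 2.57% at 4 h in grr1-deficient cells, inside the range covered in WT. Glycolysis had 6 of 19 negative, TPI1 at -2.12 first, chaperones 4 of 18, and translation factors 3 of 20. Without both libraries of replicate 2 these were 4, 4 and 2. Cell wall genes had 4 of 16 negative, with 1 to 7 when a library was left out and 1 without both libraries of replicate 2, mitochondrial respiration 1 of 35, QCR2, and alternative start sites 1 of 3, ALA1.

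SSA1 showed the difference most plainly among the chaperones. In grr1-deficient cells its share was 5.88% and 7.42% at 0 h and 5.63% and 6.16% at 4 h, so the groups overlapped, against the rise in WT (interaction -2.07, SE 0.24, edgeR adjusted p = 8.3e-08). VTC1, at 33.2% and 33.2% at 0 h and 34.7% and 42.8% at 4 h, had an interaction of -1.10 (SE 0.30, edgeR adjusted p = 0.0213). ODC2 had an interaction of -2.04 (SE 0.45, edgeR adjusted p = 0.0228).

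The 5 positive leaders included URA10 at 1.60, NCW2 at 1.42, YDR061W at 1.18 and SEC53 at 0.72. The share of URA10 was 49.0% and 37.9% at 0 h and 42.5% and 32.4% at 4 h in grr1-deficient cells, which overlapped, whereas it fell in WT. The NCW2 value was called whichever library was left out. The other 3 were not called when some single libraries were left out: URA10 in 2 of the 8 cases (WT replicate 2 and grr1-deficient replicate 2, both at 0 h), and YDR061W and SEC53 in 5 of 8 each. SEC53 was the 1 of 9 glycosylation leaders called. The lists for upstream frames, ER folding, ER to Golgi traffic, ER-associated degradation, UPR core and ribosome biogenesis had no leader called by edgeR.

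At 0 h, 60 leaders differed between grr1-deficient and WT cells, or 6.13% against a background of 4.00%. The share was higher in grr1-deficient cells for 56 (background 3.13%) and lower for 4 (background 0.864%). Under separate scaling, which moved the median from 0.09 to -0.08, 37 were higher and 12 lower, and without both libraries of replicate 2 there were 32 in all. This comparison uses the same WT 0 h libraries as the WT comparison above, so the 2 sets of values are not independent.

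Ribosomal protein leaders were 31 of the 56, and 15 without both libraries of replicate 2 or 22 under separate scaling. The RPL7A share of 0.783% and 1.14% lay above the 0.421% and 0.364% of WT (log2 odds ratio 1.25, SE 0.22, edgeR adjusted p = 7.83e-05). SSA1 (log2 odds ratio 1.82, SE 0.18, edgeR adjusted p = 1.91e-10) and VTC1 (2.01, SE 0.22, adjusted p = 2.85e-09) were higher as well. VTC1 coding reads were 30.1 and 25.2 CPM against 153 and 162 in WT. Other lists gave 4 of 19 for glycolysis, 4 of 18 for chaperones, 2 of 20 for translation factors and 1 of 16 for the cell wall, all higher, and none in amino acid synthesis, respiration or the ER lists. Without WT 0 h replicate 2 the first 4 numbers were 2, 3, 1 and 0. The 2 translation factors were also 1 without either WT 4 h or either grr1-deficient 0 h library, and the 1 cell wall leader was 0 without either grr1-deficient 0 h library. ODC2 was higher by 1.63 (SE 0.33, edgeR adjusted p = 0.0143), but not called without WT 0 h replicate 1 (0.264) or 2 (0.358).

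The 4 lower leaders were NCW2, YDR061W, YET1 and DFG5. NCW2 had 5.20% and 5.49% against 14.9% and 17.4% in WT (log2 odds ratio -1.77, SE 0.22, edgeR adjusted p = 6.85e-08). YDR061W, YET1, a protein of the ER membrane, and DFG5 were lower by 0.94, 0.83 and 0.65 on the log2 scale, and none of the 3 was called with DESeq2 or without both libraries of replicate 2. The YDR061W window ends 7 bases from the coding region of MAK21 on the same strand.

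At 4 h, 46 leaders differed between the genotypes, or 4.70% against a background of 3.62%, with 6 higher in grr1-deficient cells (background 1.22%) and 40 lower (background 2.40%). The 46 fell to 8 without WT 4 h replicate 1, 6 without WT 4 h replicate 2, 10 without grr1-deficient 4 h replicate 2 and 7 without both libraries of replicate 2. Ribosomal protein leaders were 13 of the 40, and 2 to 14 with a library left out. RPS1B was lowest by log2 odds ratio, with 2.64% and 2.54% against 5.59% and 6.71% in WT (-1.30, SE 0.21, edgeR adjusted p = 5.92e-05). RPS16A followed at -1.23 and RPL7A at -1.15, both of them lost without WT 4 h replicate 2 (edgeR adjusted p = 0.057 and 0.244) or both libraries of grr1-deficient replicate 2 (0.0516 and 0.0562). The transcripts of these genes were higher in grr1-deficient cells at 4 h, by 1.87 for RPS1B and 1.61 for RPL7A on the log2 scale.

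Of the other lists at 4 h, translation factors had 4 of 20 lower, glycolysis 2 of 19, cell wall 2 of 16, chaperones 1 of 18, respiration 1 of 35, ER folding 1 of 6 and alternative start sites 1 of 3, while amino acid synthesis had 2 of 32 lower and 1 higher and glycosylation 1 of 9 higher. The counts of translation factors, cell wall, chaperones and amino acid synthesis were 0 without WT 4 h replicate 1 and 0 without grr1-deficient 4 h replicate 2. Without WT 4 h replicate 2 glycolysis, cell wall, chaperones and amino acid synthesis were 0 and translation factors 1, and without both libraries of grr1-deficient replicate 2 all 5 were 0. QCR2, of respiratory complex III, had 6.14% and 5.68% against 10.5% and 11.3% (log2 odds ratio -0.96, SE 0.16, edgeR adjusted p = 0.000112). PBP4, VTC1, URA10 and SEC53 were among those higher, by 0.92, 0.92, 0.90 and 0.67 on the log2 scale. None of these 4 was called without WT 4 h replicate 2, where the log2 odds ratios were 0.69, 0.88, 0.71 and 0.71. VTC1 and SEC53 were also not called without WT 4 h replicate 1, URA10 without grr1-deficient 4 h replicate 1, and PBP4 and VTC1 without grr1-deficient 4 h replicate 2 or both libraries of that replicate. The PBP4 window reaches the coding region of SLC1 on the same strand.

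Length and upstream start codons are given for the leaders whose share rose or fell. The median length was 105 bases for the 166 that rose in WT and 230.5 for the 42 that fell, against 150 over the 978 and 117 over all tested. In grr1-deficient cells the medians were 114 and 239. An upstream start codon stood in 37.0% of those that rose in WT, 57.1% of those that fell and 40.0% of the 976 with a sequence, against 45.9% of all tested. Of the 11 leaders lower in both genotypes 9 held an upstream start codon, or 81.8%, and SEC53 and HEM15 had none. The median length of these 11 was 263 bases. Per 100 bases of leader there were 0.80 in those that rose, 0.75 in those that fell and 0.68 in the 11 lower in both genotypes. The value was 0.63 in all 978 and 0.88 in all tested, so by this measure both classes lay below all tested leaders. A at position -3 stood in 83.6% of those that rose and 83.3% of those that fell. These are descriptions of the classes, with no test.

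**Figure D5:**
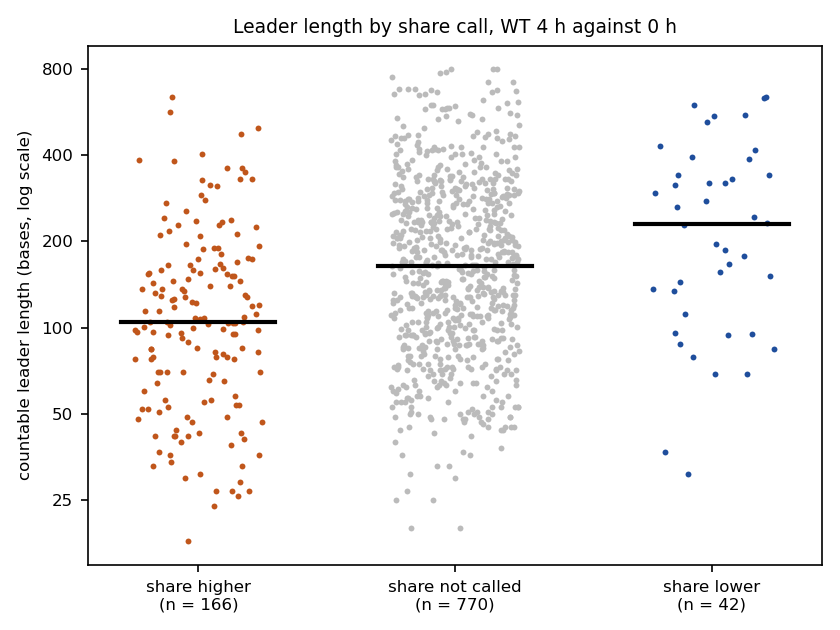
Countable leader length (bases, log axis) of the 978 leaders by their call in WT, 4 h against 0 h, with a point per leader and a bar at the median. The median is 105 bases among the 166 leaders whose share rose and 230.5 among the 42 whose share fell.

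Reads of a neighbour on the same strand could enter a leader window. Of the 477 leaders with a same-strand neighbour upstream, 57 had a window ending within 100 bases of its coding region, among them 10 of 83 that rose in WT, 7 of 24 that fell in WT and 5 of 13 that fell in grr1-deficient cells. YIP3 lies 26 bases from LAP2, YOL036W 48 bases from PRE6, and the HOM2 window reaches YDR157W. Without those 57 leaders, an alternative chosen after the data were seen, 921 remained. Of these, 191 were called in WT, 156 higher and 35 lower, against 166 and 42 with all 978. In grr1-deficient cells 51 were called, 31 higher and 20 lower, against 33 and 25. The interaction called 71, with 3 positive and 68 negative. Between genotypes 56 were called at 0 h, 54 higher and 2 lower, and 40 at 4 h, 5 higher and 35 lower.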

How the data were processed

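Total RNA from 8 libraries of 4 groups was sequenced on an MGI instrument. Per the file headers, the authors counted reads of 25 to 100 nt with the counting program of plastid at the base 25 nt from the 5′ end, over exon, 5′ UTR, coding and 3′ UTR positions of each gene. The deposited values used here are these raw read counts and the countable lengths in bases. The deposited RPKM columns and the authors' own deposited comparison tables were not used. Per the submitters' processing notes, the tools were STAR 2.7.3a, Bowtie2 2.3.5, cutadapt 2.6 and DESeq2 with genome build R64, whose order and roles are not given. The deposited leader counts and countable lengths rest on an annotation that is named in the headers only and was not at hand. For sequences, each leader was therefore taken as its countable number of bases directly before the RefSeq start codon. Upstream frames, motif positions within leaders and distances to neighbours rest on this placement, which was not checked against the annotated leader ends.

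The leader and coding counts of each library formed a table of 16 columns. It was fitted with edgeR 4.0.16 (limma 3.58.1, R 4.3.3) with a coefficient per library and a leader-against-coding coefficient per group, all 8 libraries in 1 fit, over 3702 leaders that passed filterByExpr with a minimum count of 10 in both tables. Tests were two-sided, and p-values were adjusted over these 3702. The 5 comparisons are tunicamycin in each genotype, their interaction, and genotype at each time. Transcript changes come from exon counts of 5855 genes, scaled with TMM, and depth-scaled counts (CPM) use the same scaling. With 2 libraries a group, the share fit leaves 4 residual degrees of freedom per leader. Its estimate of spread is pooled over the groups and drawn toward that of the other leaders (median prior degrees of freedom 46.4). A p-value therefore does not rest on the spread of the compared pairs alone. The scripts were tested on simulated data. DESeq2 1.42.0 was an alternative, with separate scaling, no filter, other read thresholds, a replicate block and each library left out. Features and figures used Python 3.11.15, pandas 2.3.3 and matplotlib 3.10.9, and sequences the RefSeq R64 genome.

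The leaders, the gene lists and the tests were chosen with earlier results of these data known. Named genes are the 5 largest changes a direction with no overlap between groups, the 5 largest interactions a direction, the 2 largest changes of each list, HAC1, GCN4, KAR2 and GRR1, the leaders next to the threshold and the highest and lowest mean shares. Other genes were named after their values were seen. The values of 1 leader that this rule names are not reported here.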

Additional observations from a re-analysis of the deposited data

Results flagged for a closer look

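The change of share with tunicamycin differed between WT and grr1-deficient cells for 77 of the 978 leaders, by edgeR's test of the interaction with an adjusted p under 0.05. That is 7.87%, against 4.38% of all leaders tested. The median over the 978 was -0.15, and 0.03 under separate scaling. Negative values, given on the log2 odds ratio scale as grr1-deficient minus WT, mean that the share rose less or fell more in grr1-deficient cells. Of the 35 ribosomal protein genes with negative values, those named by rule were RPL15A at -2.46, RPL7A at -2.40, RPS1B at -2.21, RPS16A at -2.10, RPL31A at -1.96, RPS9B at -1.74, RPL23B at -1.64, RPS3 at -1.39 and RPL41A at -1.34. Of the 6 in glycolysis they were TPI1 at -2.12, GPM1 at -1.76 and ENO2 at -1.27. The 3 leaders from the translation factor list were YEF3 at -1.58, TIF1 at -1.54 and STM1 at -1.48, and 2 of the 4 chaperones were SSA1 at -2.07 and SSB2 at -1.90. The carrier ODC2 was at -2.04, the cell wall enzyme GAS1 at -1.20, VTC1 at -1.10, QCR2 at -1.03, YOL036W at -1.01 and ALA1 at -0.85. Positive values included URA10 at 1.60, NCW2 at 1.42, YDR061W at 1.18 and SEC53 at 0.72. The limits given above for the calls of URA10, YDR061W and SEC53 hold here too.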

How the results depend on the processing

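Of the 147 values for named genes, none that was called changed sign under the alternatives run, though some that were not called did, and so did splits and medians. With total counts, the transcript split turned from 256 higher and 148 lower to 109 and 431 in the interaction, and from 204 and 353 to 317 and 153 at 0 h, beside the WT turn given above, and from 211 and 182 to 134 and 325 at 4 h. Of the 147, 125 of the 139 that DESeq2 could test kept their side of the threshold and 14 lost it, and 126 kept it without both libraries of grr1-deficient replicate 2. In WT, 208 leaders were called, 132 with DESeq2, 388 with a read threshold of 20, 108 with 100, and 130 to 211 with 1 library left out and 219 without both libraries of grr1-deficient replicate 2. In grr1-deficient cells, 58 were called, 29 with DESeq2, 106 and 24 with those thresholds, 20 to 67 with 1 library left out and 21 without both libraries of replicate 2. By the interaction 77 were called, 120 and 34 with those thresholds, 45 to 85 with 1 left out and 43 without both. At 0 h, 60 were called, 38 with DESeq2, 98 and 25 with those thresholds, 32 to 67 with 1 left out and 32 without both. At 4 h, 46 were called, 21 with DESeq2, 87 and 18 with those thresholds, 6 to 59 with 1 left out and 7 without both. The read thresholds change which leaders are counted out of the same 3702 tests, 1960 at 20 reads and 481 at 100. For the other alternatives the cause was not tested. DESeq2 gave an adjusted p for 978 leaders in WT, but for 907 in grr1-deficient cells, 833 at 0 h and 674 at 4 h. By the interaction it gave 595 and called 58. The mean summed share of 7.83%, 10.7%, 9.69% and 9.40% (WT 0 h, WT 4 h, grr1-deficient 0 h, grr1-deficient 4 h) was 13.9%, 14.6%, 14.7% and 13.9% as the median over leaders, 7.20%, 9.99%, 9.02% and 8.77% at 20 reads, and 9.07%, 11.6%, 10.9% and 10.5% at 100. The labels do not say what a replicate number marks: share deviations of same-numbered libraries correlated between -0.148 and 0.091, while the mitochondrial reads set grr1-deficient replicate 2 apart at both times. A replicate block gave 207, 65, 84, 68 and 53 calls in the 5 comparisons, and a replicate block within genotype 198, 55 (27 higher and 28 lower) and 83 in the first 3, with RPS1B (edgeR adjusted p = 0.0532) and QCR7 (0.0746) lost in grr1-deficient cells. With 50 reads as the minimum, counting error limits the smallest leaders most.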

Other observations

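HNT1, a nucleotide hydrolase of the histidine triad family, is not among the 980 because its leader held 24 reads in its lowest library, yet its share moved more than that of ODC2. Its leader of 73 bases had shares of 1.57% and 1.61% in WT at 0 h, 25.5% and 26.5% in WT at 4 h, 1.92% and 4.33% in grr1-deficient cells at 0 h, and 25.3% and 26.8% at 4 h. The HNT1 log2 odds ratio with tunicamycin was 4.43 (SE 0.22, edgeR adjusted p = 3.57e-22) in WT and 3.56 (SE 0.22, edgeR adjusted p = 7.9e-18) in grr1-deficient cells, and its interaction was not called (edgeR adjusted p = 0.214). The 4 h libraries of both genotypes lie far above those at 0 h. This gene was chosen after its values were seen.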
